A study of Mus musculus with 15 samples.

Results

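The early growth response factors Egr1, Egr2, Egr3 and Egr4 and their corepressors Nab1 and Nab2 were followed in the whole thymus of 2 mouse strains after a peptide injection. They are 6 of the 19938 genes measured, and each was taken by its exact gene symbol in the array annotation, which gave 1 probe set per gene. Total RNA was measured on 15 Affymetrix arrays of mouse genes, 1 per mouse. All mice were 5-week-old females that received 0.5 µg of peptide into a vein, and the thymus was removed 2 h later. The peptide was gp33, a viral fragment presented by the class I molecule Db, or a control peptide that binds the same molecule. NOD.Ln82-LCMV mice gave 4 arrays with the control peptide and 5 with gp33, and NOD.LCMV mice gave 3 arrays with each. The labels do not describe the Ln82 segment, the meaning of the suffix LCMV, or any processing batch, and strain and batch cannot be told apart. The series title asks about impaired deletion of thymic CD8 T cells in NOD mice.

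Egr factors are zinc finger activators that bind GC-rich sites and belong to the immediate early genes. Signals from the T-cell receptor through Ras and the ERK kinases switch them on, in part through serum response factor and its ETS partners at CArG boxes. Nab1 and Nab2 bind to Egr1, Egr2 and Egr3 and repress what these activate, and Nab2 is itself known as an Egr target, so that the group forms a negative feedback loop. In the thymus Egr genes are known for their part in the pre-T-cell-receptor checkpoint, in positive selection and in the response to strong ligands.

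In NOD.LCMV thymus, 5 of the 6 genes were higher after gp33, namely Egr1, Egr2, Egr3, Nab1 and Nab2, and Egr4 did not pass the test. Egr2 showed the largest difference of the 6, a 2.89-fold rise, and Nab1 the smallest of those that passed, a 1.22-fold rise. In NOD.Ln82-LCMV thymus all 6 differences were above 0, but none passed the test and every pair of ranges overlapped. A gene passed where its p in limma, a linear model with moderated variances, stayed under 0.05 after Benjamini-Hochberg adjustment across all genes. By that rule 7.29% of all genes were higher after gp33 in NOD.LCMV and 0.00502%, a single gene, in NOD.Ln82-LCMV. The median difference of the 6 genes was 0.68 on the log2 scale in NOD.LCMV, where that of all genes was -0.03, and 0.24 in NOD.Ln82-LCMV. In whole tissue, a change in the number of cells of a type and a change in RNA per cell cannot be told apart.

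**Figure D1:**
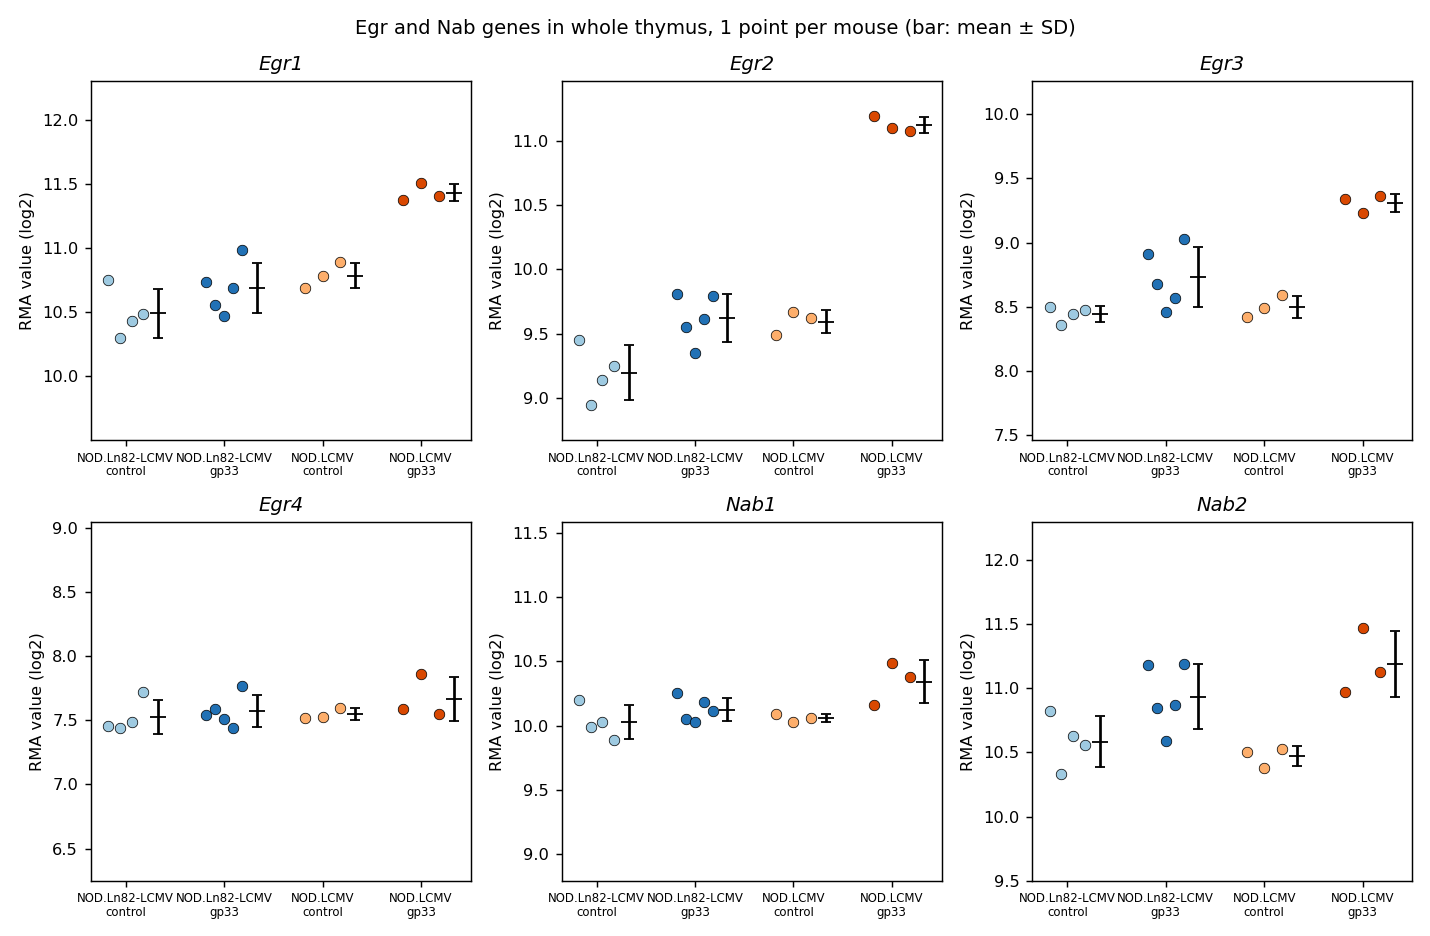
Log2 values from robust multi-array averaging (RMA) for the 6 genes, 1 point per mouse in the 4 groups, with the group mean ± SD beside the points; each panel spans the same log2 range at its own height. The 3 NOD.LCMV mice given gp33 lie above the other 12 mice for Egr1, Egr2 and Egr3 and only mouse 2 does so for Egr4, and for Nab1 and Nab2 their lowest values fall within the range of NOD.Ln82-LCMV mice.

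The arrays were alike in their general properties. Array medians lay between 7.59 and 7.67 log2, and arrays of a group correlated at 0.990 or more across probe sets. Levels of different probe sets were not set against each other, because RMA values depend on the probes, and differences between groups are reported instead. Values for single mice are listed below in the order of the replicate numbers, which carry no ranking.

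Egr1, the best known immediate early member, lies on chromosome 18 (NCBI gene 13653, probe set 10454782). NOD.LCMV mice given the control peptide had log2 values of 10.69, 10.78 and 10.89, and those given gp33 had 11.38, 11.51 and 11.41. All gp33 values were above all control values. The difference was 0.65 ± 0.12 (SE), or 1.57-fold with a 95% interval from 1.31 to 1.87, at a limma adjusted p of 0.00111. In NOD.Ln82-LCMV the control mice had 10.75, 10.30, 10.43 and 10.49, and the gp33 mice had 10.74, 10.56, 10.47, 10.69 and 10.99. These groups overlapped over most of their range. The difference was 0.20 ± 0.10 with an interval from -0.01 to 0.41 and a limma adjusted p of 0.846.

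Egr2, a paralogue linked to selection and to unresponsiveness of T cells, lies on chromosome 10 (NCBI gene 13654, probe set 10363735). NOD.LCMV control mice had log2 values of 9.49, 9.67 and 9.62, and gp33 mice had 11.20, 11.10 and 11.08. The groups were separated by more than the whole range of all other mice. The difference was 1.53 ± 0.12, with an interval of the fold from 2.42 to 3.46 and a limma adjusted p of 2.71e-07, and the size of the rise ranked Egr2 88 among all genes. NOD.Ln82-LCMV control mice had 9.45, 8.94, 9.14 and 9.25, and gp33 mice had 9.81, 9.55, 9.35, 9.61 and 9.79. Of the gp33 mice, 4 were above every control mouse and mouse 3 was not. That difference was 0.43 ± 0.10, or 1.34-fold with an interval from 1.16 to 1.56, and ranked 30 among all genes by size. Its p in limma was 0.000653 before adjustment and 0.374 after it.

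The RefSeq sequence upstream of Egr2 (mouse assembly GRCm38.p6) is shown because Egr2 moved most. It has 5 annotated starts, and CArG boxes, the core of serum response factor sites, were found in the 250 bases before 4 of them, at 2 positions. Only the exact letters CCWWWWWWGG, with A or T at each W, were counted as a CArG box. Both stretches run 5′ to 3′ on the plus strand, and the capitals mark the CArG box and, in the second, also the CRE half-site TGACG read on the other strand. The first is chr10:67537491-67537520 and the second chr10:67537794-67537823.
Egr2 first CArG box: tctCCTTTTTTGGaaagtctcggagaaccg
Egr2 second CArG box: agtCCATATATGGgcagcgaCGTCAcgggt
A CArG box on either strand was present in 1.47% of the 32851 windows of 250 bases before annotated mouse starts, and TGACG on either strand in 17.8%. A match of letters is a description and not a binding site, and binding was not measured.

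Egr3 lies on chromosome 14 (NCBI gene 13655, probe set 10416251) and overlaps with Egr2 in its known functions. NOD.LCMV control mice had log2 values of 8.42, 8.49 and 8.59, and gp33 mice had 9.34, 9.23 and 9.36. Again no gp33 value fell among the control values. The difference was 0.81 ± 0.11, or 1.75-fold with an interval from 1.48 to 2.07, at a limma adjusted p of 0.000102. NOD.Ln82-LCMV control mice had 8.50, 8.36, 8.44 and 8.47, and gp33 mice had 8.91, 8.68, 8.46, 8.57 and 9.03. Gp33 mouse 3 fell within the control range, and the other 4 lay above it. The difference was 0.29 ± 0.09 with an interval from 0.09 to 0.48, at a p of 0.00715 before and 0.689 after adjustment in limma.

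Egr4, which lacks the region that Nab proteins bind in the other Egr factors, lies on chromosome 6 (NCBI gene 13656, probe set 10545859). NOD.LCMV control mice had log2 values of 7.52, 7.53 and 7.60, and gp33 mice had 7.59, 7.86 and 7.55. Gp33 mouse 2 was above the rest and the other 2 were within the control range. The difference was 0.12 ± 0.09 with an interval from -0.08 to 0.32 and a limma adjusted p of 0.496. In NOD.Ln82-LCMV the control values were 7.46, 7.44, 7.49 and 7.72, and the gp33 values were 7.54, 7.59, 7.51, 7.44 and 7.77. The difference was 0.04 ± 0.08 at a limma adjusted p of 0.995. Egr4 values lay close to the array medians in every group, no background level was measured, and how much a low signal compressed its differences is not known.

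The 250 bases before the Egr4 start, chr6:85513590-85513839 on the minus strand, are shown for comparison with Egr2. They hold no exact CArG box, and near matches such as ccatgtttgg were not counted. The letters TGACG occur at 2 places, in capitals as read on the other strand.
Egr4 upstream sequence: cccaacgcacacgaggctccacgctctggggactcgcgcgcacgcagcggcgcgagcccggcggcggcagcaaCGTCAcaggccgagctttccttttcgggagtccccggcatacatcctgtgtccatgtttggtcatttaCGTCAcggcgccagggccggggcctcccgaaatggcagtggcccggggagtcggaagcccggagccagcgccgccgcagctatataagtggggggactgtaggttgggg
Of the 6 genes, 4 had an entry among the RefSeq promoters, which were Egr2, Egr4, Nab1 and Nab2.

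Nab2, the corepressor that is known to follow Egr induction, lies on chromosome 10 (NCBI gene 17937, probe set 10373313). NOD.LCMV control mice had log2 values of 10.50, 10.38 and 10.53, and gp33 mice had 10.97, 11.47 and 11.13. The ranges did not overlap, and gp33 mouse 2 was the highest of all mice. The difference was 0.72 ± 0.16, or 1.65-fold with an interval from 1.31 to 2.07, at a limma adjusted p of 0.00365. NOD.Ln82-LCMV control mice had 10.82, 10.33, 10.63 and 10.56, and gp33 mice had 11.18, 10.85, 10.59, 10.87 and 11.19. Again mouse 3 alone of the gp33 mice fell within the control range. The difference was 0.35 ± 0.13 with an interval from 0.08 to 0.62, at a p of 0.0154 before and 0.741 after adjustment in limma.

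Nab1, the other corepressor, lies on chromosome 1 (NCBI gene 17936, probe set 10354494). NOD.LCMV control mice had log2 values of 10.09, 10.03 and 10.06, and gp33 mice had 10.16, 10.49 and 10.38. The lowest gp33 value stood just above the highest control value. The difference was 0.28 ± 0.09, with an interval of the fold from 1.07 to 1.38 and a limma adjusted p of 0.0291. It no longer passed without any one of NOD.LCMV control mice 1, 2 or 3 or gp33 mice 2 or 3, where the adjusted p was 0.0577, 0.0922, 0.0695, 0.146 and 0.0878 in that order. In NOD.Ln82-LCMV the control mice had 10.20, 9.99, 10.03 and 9.89, and the gp33 mice had 10.25, 10.05, 10.03, 10.18 and 10.11. The difference was 0.10 ± 0.07 at a limma adjusted p of 0.954.

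Sequences before the starts of Nab1 and Nab2 are shown because their proteins act on Egr factors. Within 250 bases before the Nab1 start, the letters GCGTGGGCG, the classical Egr site, occurred at 2 places, which lie at chr1:52500562-52500591 and chr1:52500537-52500566 on the minus strand in the stretches below. Capitals mark the Egr letters, which are read on the other strand in the first stretch, and there also the CRE half-site. With the fourth letter free, as GCGNGGGCG, Nab1 held 3 matches, which include the 2 exact ones. The Nab2 window, chr10:127666704-127666953 on the minus strand, held no match to any of the 4 motifs searched, which says only that these letters are not in it.
Nab1 distal Egr letters: gcCGCCCACGCcgggatctgCGTCActcgg
Nab1 proximal Egr letters: ctcggccgcGCGTGGGCGggagccggagcg
Nab2 upstream sequence: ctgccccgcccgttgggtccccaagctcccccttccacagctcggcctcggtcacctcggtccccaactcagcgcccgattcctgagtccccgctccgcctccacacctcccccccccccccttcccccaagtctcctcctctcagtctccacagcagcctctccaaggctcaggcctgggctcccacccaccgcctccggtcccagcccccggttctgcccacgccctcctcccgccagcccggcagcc
On either strand, GCGTGGGCG was present in 0.536% of all windows and GCGNGGGCG in 4.7%.

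For each of the 5 genes that passed in NOD.LCMV, all gp33 mice were above all control mice, as was the case for 10.9% of all genes. In NOD.Ln82-LCMV no gene of the 6 had separate ranges, against 0.667% of all genes that were higher without overlap. Exact two-sided permutation tests of single genes cannot fall below 0.1 in NOD.LCMV, and Egr1, Egr2, Egr3, Nab1 and Nab2 each gave that smallest value. In NOD.Ln82-LCMV, where the smallest possible value is 0.00794, the exact permutation p was 0.0238 for Egr2, 0.0556 for Nab2, 0.0635 for Egr3, 0.198 for Egr1, 0.23 for Nab1 and 0.603 for Egr4. Egr2, Egr3 and Nab2, 3 of the 6 genes, were under 0.05 in limma before adjustment in NOD.Ln82-LCMV, as were 5.97% of all genes.

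The difference between the responses of the strains was tested as an interaction. It was 1.11 ± 0.16 log2 for Egr2, with an interval from 0.77 to 1.44 and a limma adjusted p of 0.000277, so the Egr2 rise was larger in NOD.LCMV. For Egr3 it was 0.52 ± 0.15, with an interval from 0.21 to 0.83 and an adjusted p of 0.0358. The Egr3 result no longer passed when any one of 10 mice was left out, with an adjusted p from 0.0518 to 0.0937. These were NOD.Ln82-LCMV control mice 1, 3 and 4 and gp33 mice 2 and 4, and NOD.LCMV control mice 1 and 2 and gp33 mice 1, 2 and 3. Egr1 gave 0.45 ± 0.15 at 0.0912 and passed at 0.0201 without NOD.Ln82-LCMV gp33 mouse 5. Nab2 gave 0.37 ± 0.20 with an interval from -0.06 to 0.80 at an adjusted p of 0.341. For Nab1 it was 0.19 ± 0.11 at 0.399 and for Egr4 0.07 ± 0.12 at 0.843. Egr2 and Egr3 were thus 2 of 6 that passed, beside 4.46% of all genes in the same direction. A missed threshold does not show that the strains responded alike, and the Nab2 interval runs from a slightly smaller response in NOD.LCMV to one much larger.

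**Figure D2:**
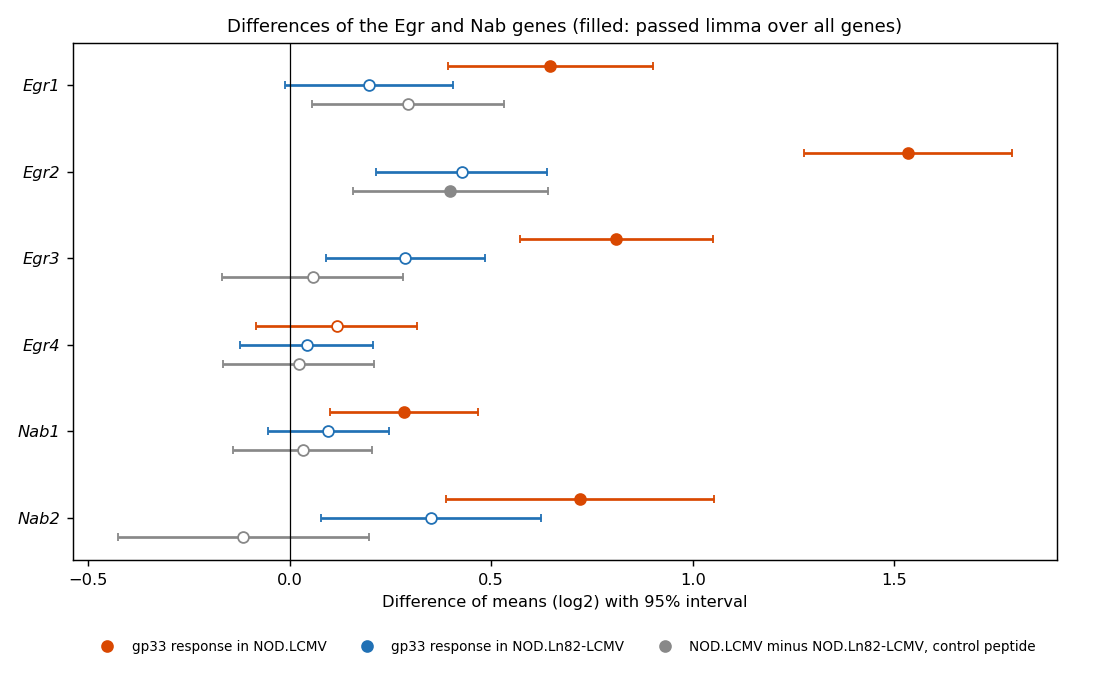
Difference of group means in log2 with its 95% interval for the 6 genes, drawn for the gp33 response in each strain and for the strain difference with control peptide; filled points passed limma over all genes. Egr2 stands at 1.53 in NOD.LCMV against 0.43 in NOD.Ln82-LCMV, while the intervals of Egr4 cross 0 in all 3 comparisons.

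With the control peptide, Egr2 was higher in NOD.LCMV than in NOD.Ln82-LCMV by 0.40 ± 0.11, or 1.32-fold with an interval from 1.11 to 1.56, at a limma adjusted p of 0.0359. The lowest NOD.LCMV mouse, at 9.49, was just above the highest NOD.Ln82-LCMV mouse, at 9.45, so the ranges did not overlap, as for 10.3% of all genes. The exact permutation p was 0.0571, where 0.0286 is the smallest possible. The Egr2 difference no longer passed without NOD.Ln82-LCMV control mouse 2, 3 or 4 or NOD.LCMV control mouse 2 or 3, with an adjusted p from 0.0556 to 0.133. Egr1 differed by 0.29 ± 0.11 at an adjusted p of 0.118, and by 0.38 at 0.0259 without NOD.Ln82-LCMV control mouse 1. The other 4 genes gave 0.06 ± 0.11 for Egr3, 0.02 ± 0.09 for Egr4, 0.03 ± 0.08 for Nab1 and -0.12 ± 0.15 for Nab2, with adjusted p-values of 0.741 or more. In this comparison 1 of the 6 genes passed, beside 4.77% of all genes.

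With gp33, Egr1, Egr2, Egr3 and Nab1 were higher in NOD.LCMV, 4 of 6 beside 10.2% of all genes. Egr2 differed by 1.50 ± 0.11, or 2.84-fold with an interval from 2.42 to 3.33, at a limma adjusted p of 9.2e-08. Egr1 differed by 0.74 ± 0.11 at 8.16e-05 and Egr3 by 0.58 ± 0.10 at 0.000439. For these 3 genes the ranges did not overlap, as for 10.6% of all genes. Nab1 differed by 0.22 ± 0.08 at an adjusted p of 0.0462 with overlapping ranges, and it passed in only 4 of the 15 fits that left out a mouse, which were those without NOD.Ln82-LCMV control mouse 1 or 4 or gp33 mouse 1 or NOD.LCMV gp33 mouse 1. Nab2 differed by 0.25 ± 0.14 at 0.223, and its NOD.Ln82-LCMV gp33 mice 1 and 5, at 11.18 and 11.19, stood above NOD.LCMV gp33 mice 1 and 3, at 10.97 and 11.13. Egr4 differed by 0.10 ± 0.08 at 0.49.

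The order of the groups was not the same for all genes. For Egr1 the group means rose from 10.49 ± 0.19 (SD, n = 4) in NOD.Ln82-LCMV control mice through 10.69 ± 0.20 (n = 5) with gp33 and 10.79 ± 0.10 (n = 3) in NOD.LCMV control mice to 11.43 ± 0.07 (n = 3) in NOD.LCMV gp33 mice. Only the last stood apart from its neighbour. For Egr2 the NOD.LCMV control mean of 9.59 ± 0.09 and the NOD.Ln82-LCMV gp33 mean of 9.62 ± 0.19 were within each other's spread, below 11.13 ± 0.06 in NOD.LCMV gp33 mice. For Egr3 the control groups, at 8.44 ± 0.06 and 8.50 ± 0.09, overlapped, and the NOD.Ln82-LCMV gp33 mean of 8.73 ± 0.24 lay between them and the 9.31 ± 0.07 of NOD.LCMV gp33 mice. For Nab2 the gp33 groups overlapped, at 10.94 ± 0.25 in NOD.Ln82-LCMV and 11.19 ± 0.26 in NOD.LCMV.

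Mice of a group also shared some of their order across genes. NOD.Ln82-LCMV gp33 mice 1 and 5 held the 2 highest values of Egr1, Egr2, Egr3 and Nab2 in their group, and gp33 mouse 3 the lowest of Egr1, Egr2, Egr3 and Nab2. Among the NOD.Ln82-LCMV control mice, mouse 1 was highest for Egr1, Egr2, Egr3, Nab1 and Nab2, and mouse 2 was lowest for Egr1, Egr2, Egr3, Egr4 and Nab2. In NOD.LCMV gp33 mouse 2 was highest for Egr1, Egr4, Nab1 and Nab2 but lowest for Egr3. The values of 1 array share its RNA extract and normalization, so this order is a description of these mice.

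The balance between an Egr factor and Nab2 was described by subtracting the Nab2 log2 value from the Egr value on each array and setting the strain's control mean to 0. These pairs were chosen after the values had been seen, and no test was made. Egr2 minus Nab2 was 0.81 ± 0.30 (SD, n = 3) in NOD.LCMV gp33 mice, from 0.51 to 1.11. It was 0.08 ± 0.07 (n = 5) in NOD.Ln82-LCMV gp33 mice, from -0.01 to 0.15. The control mice ran from -0.10 to 0.08 in NOD.Ln82-LCMV and from -0.13 to 0.17 in NOD.LCMV. NOD.Ln82-LCMV gp33 mice 2, 3 and 4, at 0.09, 0.15 and 0.13, lay above the control range of their own strain, and mice 1 and 5 within it. Egr2 therefore rose by more than Nab2 in each NOD.LCMV gp33 mouse, while in NOD.Ln82-LCMV the mean changes were 0.43 for Egr2 and 0.35 for Nab2. Egr1 minus Nab2 was -0.07 ± 0.19 in NOD.LCMV and -0.15 ± 0.12 in NOD.Ln82-LCMV gp33 mice, and all 5 of the latter were below 0. Of these, only mice 1 and 2, at -0.35 and -0.20, were below the range of their control mice, -0.11 to 0.06. Egr3 minus Nab2 was 0.09 ± 0.32 in NOD.LCMV and -0.06 ± 0.07 in NOD.Ln82-LCMV gp33 mice.

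**Figure D3:**
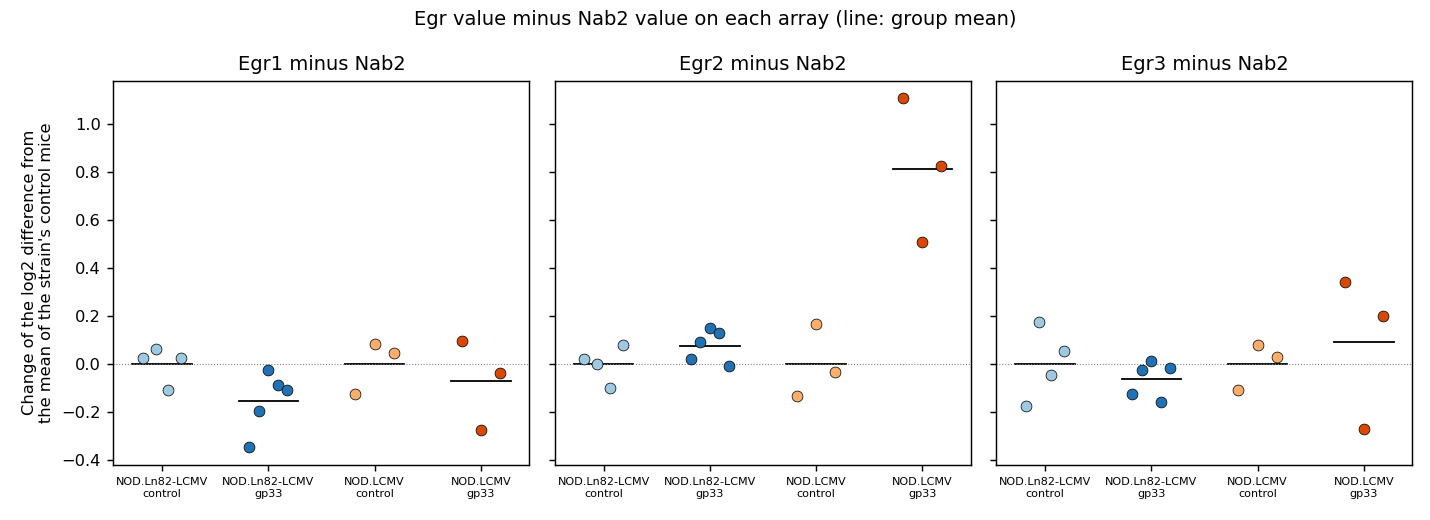
Log2 value of Egr1, Egr2 or Egr3 minus that of Nab2 on each array, as the change from the mean of the strain's control mice, with 1 point per mouse and a line at the group mean. Egr2 minus Nab2 is raised in the 3 NOD.LCMV gp33 mice, at 0.51 to 1.11, and the Egr1 and Egr3 pairs lie between -0.35 and 0.34 in all groups.

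Genes reported as targets of Egr factors in T cells or thymocytes were taken from a list of 28, of which 27 were measured. In NOD.LCMV, 16 rose after gp33, 2 fell and 9 did not pass, beside 7.29% of all genes higher and 12.5% lower. The median difference of the 27 was 0.42 log2, against -0.03 for all genes. In NOD.Ln82-LCMV none passed in limma, 3 were under 0.05 before adjustment, and the median was 0.03. The difference between the responses passed for 13 genes as larger in NOD.LCMV and for 1 as smaller. In that comparison 4.46% of all genes passed in the direction of the 13, and 1740 of 19938 genes in either direction. The list mixes targets reported in various T cells, and many of its genes are also known to respond to NF-κB or NFAT. It was chosen with earlier results of these data known, so its counts beside all genes are only a description.

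**Figure D4:**
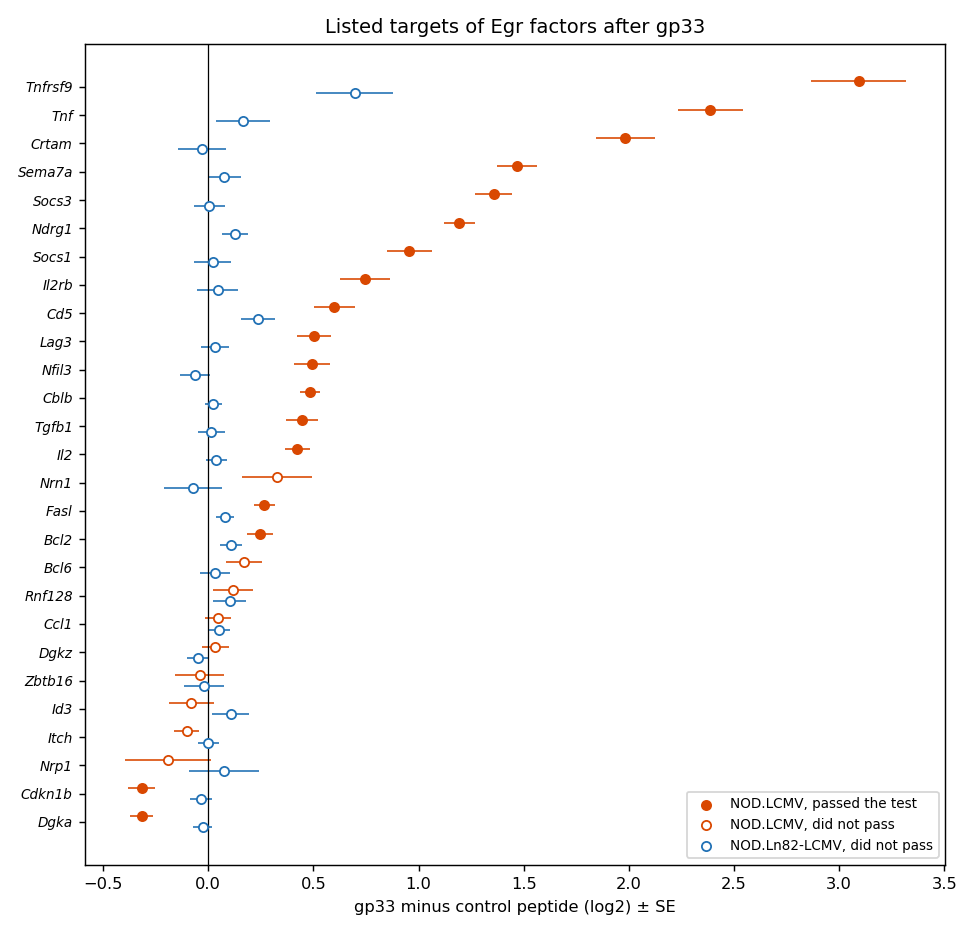
Difference between gp33 and control peptide in log2 ± SE for the 27 measured targets, in NOD.LCMV (orange, filled where limma passed) and NOD.Ln82-LCMV (blue, none passed), sorted by the NOD.LCMV value. In NOD.LCMV 16 genes rose and 2 fell, and in NOD.Ln82-LCMV most points lie near 0.

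The 5 targets with the smallest adjusted p were Ndrg1, Tnf, Sema7a, Socs3 and Crtam. Tnf, a cytokine gene, lay between 8.99 and 9.18 log2 in NOD.LCMV control mice and between 11.39 and 11.65 with gp33, a difference of 2.39 ± 0.15 at a limma adjusted p of 3.18e-08. In NOD.Ln82-LCMV the control mice had 8.67 to 9.18 and the gp33 mice 8.89 to 9.45, which overlapped. Crtam, an adhesion molecule of activated CD8 T cells, differed by 1.98 ± 0.14 in NOD.LCMV at 7.59e-08, and its gp33 range of 9.18 to 9.79 was far above the 6.89 to 7.55 of all other mice. Sema7a, a membrane-bound semaphorin, differed by 1.47 ± 0.10 at 3.29e-08. Socs3, an inhibitor of cytokine signalling, differed by 1.36 ± 0.09 at 3.56e-08. Ndrg1, linked to unresponsiveness of T cells, differed by 1.19 ± 0.07 at 2.13e-08. Outside that rule, and chosen after its values were seen, Tnfrsf9, the costimulatory receptor 4-1BB, differed by 3.09 ± 0.23 in NOD.LCMV. In NOD.Ln82-LCMV it differed by 0.70 ± 0.19 and did not pass, with a limma p of 0.00192 before and 0.572 after adjustment. With the control peptide Tnfrsf9 was already lower in NOD.LCMV, at -0.71 ± 0.21 against NOD.Ln82-LCMV and a limma adjusted p of 0.0433. The targets that fell in NOD.LCMV, also chosen after their values were seen, were Dgka at -0.32 ± 0.06 and Cdkn1b at -0.32 ± 0.07. Dgka is a diacylglycerol kinase that dampens receptor signals, and Cdkn1b is a cell cycle inhibitor. Id3, a target in positive selection, gave -0.08 ± 0.11 in NOD.LCMV and did not pass.

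Of 22 genes upstream of Egr induction, 16 were measured, and in NOD.LCMV 1 rose, 4 fell and 11 did not pass, with a median of -0.09 log2. Of all genes, 7.29% rose and 12.5% fell in that comparison. Creb1, a factor that binds CRE sites, rose by 0.21 ± 0.06 at a limma adjusted p of 0.0177. Its result no longer passed without NOD.LCMV control mouse 1 or 2 or gp33 mouse 2, with adjusted p-values of 0.0555, 0.0734 and 0.0764. Mrtfa and Mrtfb, coactivators of serum response factor, fell by 0.34 ± 0.06 at 0.000591 and by 0.26 ± 0.05 at 0.00284. Araf, a Raf kinase, fell by 0.23 ± 0.04 at 0.000732, and Map2k1, the kinase MEK1, by 0.19 ± 0.05 at 0.00956, or 0.0562 without NOD.LCMV gp33 mouse 2. In NOD.Ln82-LCMV none of the 16 passed in limma, and 0 were under 0.05 before adjustment.

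Nab2 is known to recruit the NuRD complex, which joins chromatin remodelling to histone deacetylation, and all 13 listed NuRD genes were measured. In NOD.LCMV 2 rose and 1 fell, beside 7.29% of all genes higher and 12.5% lower, with a median of -0.01 log2. Chd4, the remodelling ATPase, rose by 0.24 ± 0.06 at a limma adjusted p of 0.00819, and Mta3, a scaffold subunit, fell by 0.38 ± 0.07 at 0.00125. Rbbp7, a histone-binding subunit, rose by 0.16 ± 0.05 at 0.044 and no longer passed without any one of 7 mice, at up to 0.189. These were NOD.Ln82-LCMV gp33 mice 2 and 3, NOD.LCMV control mice 1, 2 and 3, and NOD.LCMV gp33 mice 2 and 3. Mbd2 and Gatad2b gave -0.13 ± 0.04 at 0.0522 and -0.12 ± 0.05 at 0.104 and did not pass, though Mbd2 passed without NOD.Ln82-LCMV gp33 mouse 5, at 0.0462, or NOD.LCMV gp33 mouse 3, at 0.0321. In NOD.Ln82-LCMV none of the 13 passed, and 0 were under 0.05 before adjustment.

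Wt1, Sp and Klf genes encode zinc finger proteins that bind related GC-rich letters, and 13 of 14 were measured. In NOD.LCMV 2 rose, 3 fell and 8 did not pass, beside 7.29% of all genes higher and 12.5% lower, with a median of -0.05 log2. Klf6, an early response gene, rose by 0.86 ± 0.07 at a limma adjusted p of 5.08e-07, and Klf10 rose by 0.49 ± 0.09 at 0.00108. Klf3, a repressor, fell by 0.53 ± 0.08 at 0.000128, Klf13 by 0.31 ± 0.07 at 0.00512 and Sp4 by 0.28 ± 0.09 at 0.0331. Sp4 no longer passed without any one of NOD.LCMV control mice 1, 2 or 3 or gp33 mice 1 or 2, at up to 0.153. In NOD.Ln82-LCMV none passed and 2 were under 0.05 before adjustment.

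For each gene that passed in any comparison, the 3 genes with the smallest root mean square distance were found over the 15 arrays, with each gene centred on its own mean. Nearest to Egr1, whose own root mean square around its mean was 0.359 log2, were Ltb at 0.0783, Bcor at 0.105 and A930024E05Rik at 0.120. Nearest to Egr2, with 0.699, were Icam1 at 0.185, Relb at 0.193 and Rel at 0.196. These rose after gp33 in NOD.LCMV by 1.69 ± 0.07, 1.75 ± 0.08 and 1.74 ± 0.09. For Egr3, with 0.342, they were Tlr2 at 0.108, Cd6 at 0.128 and Arhgef3 at 0.131. For Nab2, with 0.325, they were Mapk11 at 0.123, Ikzf2 at 0.154 and Ccr4 at 0.158, and for Nab1, with 0.150, Nemp1 at 0.0668, Rnft1 at 0.0701 and Ephx1 at 0.0702. The distance is not scaled for the size of a change, so genes that move together by different amounts can lie far apart. No member of the Egr and Nab group was among the 3 nearest genes of another, which does not show that they varied apart. The measure is a description over mice that share 4 groups.

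Cell type markers moved with the same contrast. In NOD.LCMV 6 of 11 thymocyte markers fell after gp33 and none rose, beside 12.5% of all genes lower and 7.29% higher. Cd8a fell by 0.51 ± 0.09 and Cd4 by 0.36 ± 0.11. Cd3e, at -0.05 ± 0.05, Cd3g, at -0.03 ± 0.04, Rag1, Rag2 and Ptcra did not pass. The mean of the 11 markers on an array went from 11.45 to 11.66 log2 in control mice and from 10.93 to 11.49 in gp33 mice, and from 11.43 to 11.74 over all NOD.Ln82-LCMV mice. Of 9 granulocyte markers 5 rose, namely S100a8, S100a9, Ly6g, Csf3r and Mmp8, and the array mean went from 6.95 to 7.13 in control mice and from 7.45 to 7.85 in gp33 mice. In NOD.Ln82-LCMV it was 6.69 to 6.93 and 6.84 to 7.18, where none passed and 2 were under 0.05 before adjustment. Of the other lists, thymic epithelium had 1 of 10 higher in NOD.LCMV, Cd83 at 1.20 ± 0.08, and 2 lower. Dendritic cells and macrophages had 1 of 12 higher, Cd14 at 1.48 ± 0.09, and 3 lower. Endothelium had 2 of 8 lower and fibroblasts 1 of 8 lower. Whether Cd83 and Cd14 rose per cell or with the number of cells was not tested. No marker of B cells (7), adipocytes (7) or Schwann cells (5), where Egr2 and Nab genes are also known to act, passed in that comparison, and 0 were under 0.05 in limma before adjustment. The array mean of the Schwann cell markers was 8.12 to 8.19 in NOD.LCMV control mice and at most 8.13 with gp33. Between the strains with gp33, 5 of 7 B cell markers were lower in NOD.LCMV and 0 higher, with a median of -0.68 log2. Dendritic cell and macrophage markers had 7 of 12 lower and 1 higher, thymic epithelium 5 of 10 lower and 1 higher. Thymocyte markers had 5 of 11 lower and 0 higher, and granulocyte markers 5 of 9 higher and 0 lower. Endothelium had 3 of 8 lower, and fibroblasts 3 of 8 lower and 1 higher. Of all 19938 genes, 5386 passed in this comparison in either direction. Higher were 2032 of these, or 10.2% of all genes, and the rest were lower, so lower calls were the more frequent. The part of these shifts in the Egr and Nab results was not tested.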

How the data were processed

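Total RNA of whole thymus was measured on 15 arrays, 1 per mouse. The deposited table holds log2 values, made with RMA in Affymetrix Expression Console 1.1 per the submitters' processing notes. RMA gives arrays 1 common distribution, so differences are relative to it. Their number limits the precision. Of 35556 probe sets, 21789 had exactly 1 symbol and, with the highest mean where several shared a symbol, gave 19938 genes. Probe sets with several symbols (1621) or none (12146) were left out.

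Groups came from the labels. All arrays entered 1 fit under R 4.3.3 with limma 3.58.1, 1 mean for each group (11 residual, 14.9 total degrees of freedom), two-sided, with Benjamini-Hochberg adjustment over all genes. The fit was tested on simulated data. For the strains, NOD.Ln82-LCMV was subtracted from NOD.LCMV. Single genes were also compared by exact permutation tests. The members and lists were chosen with earlier results of these data known. Named genes were the 6 members, 5 per pathway list by adjusted p in NOD.LCMV and 3 per member by likeness. Promoter letters came from RefSeq, GRCm38.p6. Alternatives were 2 normalizations, a filter on dim genes, the mean over probe sets, a variance trend, array weights, fewer groups, a stricter threshold, a replicate block and leaving out each array.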

Additional observations from a re-analysis of the deposited data

Results flagged for a closer look

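The responses of the strains to gp33 differed for the following genes, by the limma interaction test over all genes (NOD.LCMV minus NOD.Ln82-LCMV, log2 ± SE). The Egr genes were Egr2 at 1.11 ± 0.16 (adjusted p 0.000277) and Egr3 at 0.52 ± 0.15 (0.0358). Among the named Egr targets, Tnf differed by 2.22 ± 0.20 (3.45e-06), Crtam by 2.01 ± 0.18 (3.45e-06), Sema7a by 1.39 ± 0.12 (3e-06), Socs3 by 1.35 ± 0.12 (2.16e-06) and Ndrg1 by 1.07 ± 0.10 (3.65e-06). Each of these 5 targets passed under all 15 fits that left out a mouse. They and the list genes below were named for their small adjusted p in the NOD.LCMV response, which is part of this difference. Their passing here is therefore not separate support.

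Among the upstream genes, Creb1 differed by 0.29 ± 0.08 (adjusted p 0.025), Mrtfa by -0.27 ± 0.08 (0.0382), Mrtfb by -0.29 ± 0.07 (0.0175) and Araf by -0.21 ± 0.05 (0.0174). Of the 15 fits that left out a mouse, Mrtfa passed in 5, Creb1 in 11, and Mrtfb and Araf in 13 each. Of the NuRD genes, Chd4 differed by 0.29 ± 0.07 (0.0241), passing in 11 such fits, and Mta3 by -0.37 ± 0.09 (0.02), passing in 13. Klf6 differed by 0.89 ± 0.09 (1.43e-05), Klf3 by -0.41 ± 0.10 (0.0164) and Klf10 by 0.40 ± 0.12 (0.0438). Klf6 passed in all 15 such fits, Klf3 in 14 (0.0503 without NOD.LCMV control mouse 2) and Klf10 in only 5, with an adjusted p of up to 0.122 in the others.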

How the results depend on the processing

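Each of the 30 results of a gene in a comparison was recomputed under up to 25 alternatives, which gave 744 values. Of these, 691 kept direction and side of the threshold, 40 lost the call, 4 gained it and 9 changed sign. Egr1, Egr2, Egr3 and Nab2 kept their calls for gp33 in NOD.LCMV in all of them. Of the 6 genes, the strain difference with the control peptide passed for 1, but for 0 with median centring, with only the groups compared or at an adjusted p under 0.01, for 2 with array weights, and for 0 to 2 with a mouse left out. The difference between responses passed for 2, for 1 at 0.01, and for 1 to 3 with a mouse left out. Array weights also brought in Egr1 there (adjusted p 0.0101). All sign changes were of uncalled values: with the control peptide, Egr4 at -0.047 by repeated quantile normalization, Egr4 at -0.044, Egr3 at -0.0092 and Nab1 at -0.034 by median centring, and, with a mouse left out, Egr4 from -0.0067 to 0.087 and Nab1 from -0.013 to 0.09. With a mouse left out Egr4 also ran from -0.0075 to 0.107 in NOD.Ln82-LCMV and from -0.0225 to 0.1325 in the difference between responses. The cause of these changes was not tested. With a mouse left out, 4 to 5 genes passed for gp33 in NOD.LCMV, 0 in NOD.Ln82-LCMV and 3 to 4 for the strain difference with gp33. There Nab1 also lost its call with median centring (adjusted p 0.0988), array weights (0.0681), only the groups compared (0.0696) and at 0.01. In the NOD.LCMV lists, upstream genes that rose (1) numbered 2 by repeated quantile normalization, array weights or only the groups compared, 3 by median centring, 0 at 0.01 and 0 to 2 with a mouse left out. NuRD genes that rose (2) numbered 1 by quantile normalization, the mean over probe sets, array weights, only the groups compared, 0.01 or the replicate block, and 1 to 2 with a mouse left out. NuRD genes that fell (1) numbered 2 by quantile normalization, without dim genes, with a variance trend or array weights, and 1 to 2 with a mouse left out. Targets that fell (2) numbered 1 by the mean over probe sets, and zinc finger genes that fell (3) numbered 5 with array weights and 2 to 3 with a mouse left out. Sp4 lost its call in NOD.LCMV with median centring (limma adjusted p 0.0808) and at 0.01, and smaller changes of a count are not all listed. Over all genes, array weights raised the calls from 1740 to 3175 for the difference between responses and from 2057 to 4350 for the strain difference with the control peptide, and 0.01 lowered them to 862 and 934, and in NOD.LCMV from 3943 to 2483. Without NOD.Ln82-LCMV control mouse 3 or NOD.LCMV control mouse 2 or 3 the strain difference gave 1188, 1310 or 1049 calls. Same-numbered NOD.Ln82-LCMV mice did not deviate together (correlations from -0.226 to 0.117), so the numbers were not taken as pairs. NOD.Ln82-LCMV gave 1 call, or 4 with a variance trend or array weights and 0 with the replicate block, and the block changed no count of the 6 genes. It lost the call of Rbbp7 in NOD.LCMV (adjusted p 0.0743) and of Klf10 in the difference between responses (0.0606).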

Other observations

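Of the 16 upstream genes measured, 6 were higher in NOD.LCMV with the control peptide and 0 lower, beside 4.77% of all genes higher. Sos1, Elk3 and Elk4 were among these, at 0.33 ± 0.09, 0.24 ± 0.05 and 0.19 ± 0.05, and did not pass after gp33 in NOD.LCMV. The other 3, Mrtfb, Mrtfa and Araf, were lower after gp33 in NOD.LCMV. Mrtfb was 0.41 ± 0.05 log2 higher in NOD.LCMV control mice (limma adjusted p 0.000237), at 10.26 to 10.36 against 9.82 to 10.01 in NOD.Ln82-LCMV control mice, and lay at 9.98 to 10.09 in NOD.LCMV gp33 mice. Mrtfa was 0.25 ± 0.05 higher (0.00836), at 10.08 to 10.15 against 9.77 to 10.02, and lay at 9.75 to 9.85 after gp33. Araf was 0.20 ± 0.04 higher (0.00395), at 10.14 to 10.20 against 9.93 to 10.01, and lay at 9.90 to 9.99 after gp33. For all 3 genes the NOD.LCMV control mice thus stood above the other 12 mice, and this strain difference and the response to gp33 share those 3 control mice. Each of the 3 strain differences passed in all 15 fits that left out a mouse.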
